A study of Equus caballus with 4 samples.

Results

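The plasminogen activation genes described here are *PLAU*, *PLAUR*, *PLAT*, *SERPINE2*, *SERPINB2*, *SERPINF1*, *THBD*, *F3* and *THBS1*. They were chosen by gene name among the non-control probes of a horse gene expression array, which gave 22 probes for the 9 genes, of 43603 probes for 24998 gene names in all. Their RNA was read in cultures of equine satellite cells (ESC), the stem cells of skeletal muscle, which came from m. semitendinosus and had reached day 3 of differentiation. Cells of the HMB-treated group spent 24 h with 50 µM HMB (β-hydroxy-β-methylbutyrate, a metabolite of leucine), and 3 mM H2O2 was present in the last 1 h. The control had the same H2O2 exposure and no HMB, hence the comparison is of HMB against no HMB in cells exposed to H2O2. HMB was present before H2O2 as well, and no cells without H2O2 were compared. What HMB did before and during the H2O2 exposure therefore cannot be told apart. On each of 4 arrays, RNA of HMB-treated cells labeled with Cy5 was set against RNA of control cells labeled with Cy3, and each array counted as 1 replicate.

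The design limits every value below. The dyes were not swapped and all 4 arrays lay on 1 slide, so treatment and dye cannot be told apart. The labels call the arrays biological replicates but number the control as replicate 1 each time, and the methods chose 1 of several primary cultures for the work. The p-values therefore measure only the spread between these 4 arrays. The arrays need not be 4 horses, and their spread may hold no variation between animals. Primary cultures may also hold cells other than muscle cells, and in such bulk RNA fewer cells of a type and less RNA per cell cannot be told apart.

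Plasminogen is an inactive protease of plasma and tissue fluid. Tissue plasminogen activator (tPA, encoded by *PLAT*) and urokinase (uPA, encoded by *PLAU*) cut it to plasmin, which dissolves fibrin and breaks down matrix proteins, directly and through matrix metalloproteinases. Urokinase works on the cell surface, held by its receptor uPAR (*PLAUR*), and serpins, which trap a protease in an irreversible complex, keep both activators in check. In muscle this system is known for clearing fibrin after injury and for the migration and fusion of myoblasts. Clotting, the opposite process, is started by tissue factor (*F3*) and is turned down by thrombomodulin (*THBD*).

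The 60-base probes that the results turn on are shown here as the scanner files give them, in the 5′ to 3′ direction. The first 2 are the outer of 5 overlapping *PLAT* probes, which lie at chr27:2722645-2722704 and chr27:2722635-2722694 on the plus strand of EquCab1, the horse genome build in the file headers. In the first of them, the capitals mark TGA, a stop triplet at the 3′ end of the probe. The third is the *SERPINF1* probe at chr11:44215939-44215998 (plus strand), shown because this was the member called lower. The fourth is the second *SERPINB2* probe at chr8:73542822-73542881 (plus strand), shown because it lies apart from the other probe of that gene and gave a like pattern over the arrays. The files do not assign these probes to an exon or an untranslated region.
PLAT A_69_P015296: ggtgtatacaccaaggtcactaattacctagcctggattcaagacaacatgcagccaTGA
PLAT A_69_P015300: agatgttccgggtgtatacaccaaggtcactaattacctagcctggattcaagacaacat
SERPINF1 A_69_P035046: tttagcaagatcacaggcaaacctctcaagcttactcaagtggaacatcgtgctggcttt
SERPINB2 A_69_P067016: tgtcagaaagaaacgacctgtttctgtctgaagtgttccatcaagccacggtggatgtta

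A probe was tested when at least 1 channel stood well above background on every array, which held for 24673 probes and for 21 of the 22 probes of these genes. The log2 ratio sets the normalized signal of the HMB channel (Cy5) over that of the control channel (Cy3). A positive value means a higher signal with HMB relative to the other RNAs of the array. It need not mean more RNA per cell. A gene was called higher or lower at an adjusted p of 0.05 or less in limma and a fold change (FC) of at least 1.3, which is 0.38 on the log2 scale, and it is represented by its brightest probe. The arrays correlated with each other at r between 0.84 and 0.92 over the tested probes, and no spot was saturated.

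Among the 8 tested genes, *PLAT* rose and *SERPINF1* fell with HMB, and the other 6 were not called. A count of 1 of 8 genes called higher stands beside 12.3% of all 13977 tested gene names called higher, and 1 of 8 called lower stands beside 16.3% called lower, so both counts lie near the background of the array. By probes, 5 of 21 were called higher against 12.1% of all tested probes, and 1 of 21 was called lower against 16.4%, but the 5 higher probes all read the same stretch of *PLAT*. The median log2 ratio over the 8 genes was 0.19, beside −0.06 over all tested gene names and −0.07 over all tested probes. Of the 8 genes, 5 had the same sign on 4 of 4 arrays, 2 had 1 array of the other sign and 1 had 2 arrays on each side. The spread between arrays was wide for 4 genes, with an SD over 0.3, while the median SD over all tested gene names was 0.16 and 15.8% of them had an SD over 0.3.

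**Figure D1:**
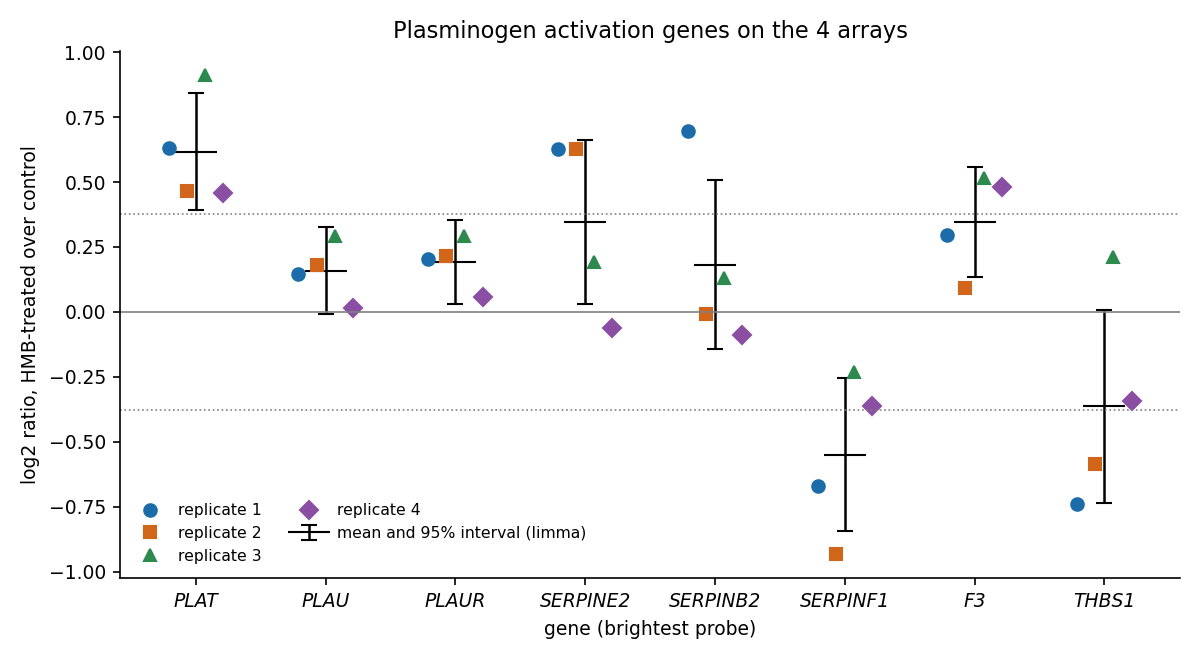
The log2 ratio of HMB-treated over control cells for the brightest probe of each tested gene, with 1 point per array, the mean and its 95% interval from limma (bars), and dotted lines at an FC of 1.3 either way. All 4 points of *PLAT* lie above the upper dotted line, all 4 points of *SERPINF1* lie below 0, and *SERPINE2*, *SERPINB2* and *THBS1* have points on both sides of 0.

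The activators differed in size. For *PLAT*, the normalized signals of HMB-treated and control cells were 341 and 220 on array 1, 254 and 184 on array 2, 388 and 206 on array 3, and 258 and 188 on array 4. The HMB signal was the higher on each array, and the lowest HMB signal (254) lay above the highest control signal (220). How large a share of all tested probes shows such a separation was not computed. The log2 ratios were 0.63, 0.46, 0.91 and 0.46 in the same order, and the mean was 0.62 ± 0.21 (SD, n = 4), an FC of 1.53 with a 95% interval of 0.39 to 0.84 on the log2 scale (limma adjusted p = 0.00287). All 5 *PLAT* probes were called higher, with means between 0.57 and 0.67 and adjusted p between 0.00200 and 0.00541. They lie within 70 bases and share most of their sequence, as the pair printed above shows, hence they check the spots and not the transcript a second time. With a normexp background correction the mean was 0.38, just under the FC threshold, with an adjusted p of 0.00942. Scaled to the spike-in RNA, which moved the median of all tested probes by −0.41, the mean of *PLAT* was 0.20 with an adjusted p of 0.113, and with treat, a limma test against an FC of 1.3 instead of 0, the adjusted p was 0.143.

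Urokinase differed less between the groups. At its brightest probe (chr1:60879502-60879561, plus strand) the *PLAU* signals of HMB-treated and control cells were 5823 and 5265 on array 1, 4929 and 4346 on array 2, 6650 and 5436 on array 3, and 4328 and 4286 on array 4. The HMB signal was the higher on each array, but the groups overlapped. This gave log2 ratios of 0.15, 0.18, 0.29 and 0.01, with a mean of 0.16 ± 0.11 (SD, n = 4), a 95% interval of −0.01 to 0.33 and an adjusted p of 0.106 in limma. None of its 5 probes was called, and their means lay between 0.13 and 0.16. The upper end of the interval lies under the FC threshold of 1.3, so that under this normalization a change of *PLAU* of that size lies outside it. With no background correction (0.21, adjusted p = 0.0238) and with median centering (0.28, adjusted p = 0.0167) *PLAU* passed the adjusted p in limma, but not the FC threshold. Without each array in turn, the adjusted p lay between 0.0927 and 0.250. Scaled to the spike-in RNA the mean turned to −0.26.

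The ratios of the receptor *PLAUR* were close to those of its ligand. Its brightest probe lies at chr10:14725924-14725983 on the minus strand. Its signals in HMB-treated and control cells were 4092 and 3558 on array 1, 3881 and 3343 on array 2, 5701 and 4655 on array 3, and 4033 and 3880 on array 4, again higher with HMB on each array and overlapping between the groups. The log2 ratios were 0.20, 0.22, 0.29 and 0.06, with a mean of 0.19 ± 0.10 (SD, n = 4), a 95% interval of 0.03 to 0.35 and an adjusted p of 0.0552, so neither threshold was met. One of the 5 probes, A_69_P002596, passed the adjusted p at 0.0123 with an FC of 1.22, under the FC threshold, and the other 4 probes had adjusted p between 0.0502 and 0.0676. That probe read 0.39 on array 4, where the other 4 probes read 0.02 to 0.08, although its target is shifted by no more than 4 bases from theirs. Some alternatives passed the adjusted p in limma but not the FC threshold. These included normexp (0.22, adjusted p = 0.0250), no background correction (0.27, adjusted p = 0.00735) and median centering in place of lowess (0.33, adjusted p = 0.00822). Without each array in turn, the adjusted p lay between 0.0597 and 0.156. As with *PLAU*, the mean turned negative when scaled to the spike-in RNA, to −0.22.

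**Figure D2:**
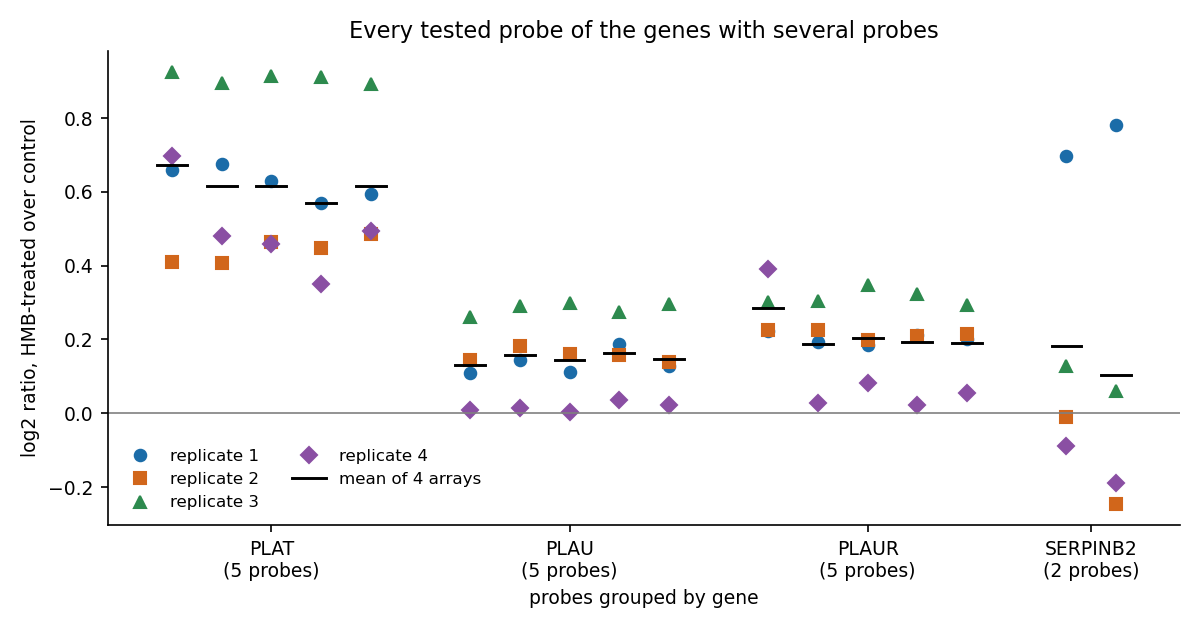
The log2 ratio of HMB-treated over control cells at every tested probe of the 4 genes that have several, with 1 point per array and the mean of 4 arrays as a bar. The probes of 1 gene nearly repeat each other, with means of 0.57 to 0.67 for *PLAT*, 0.13 to 0.16 for *PLAU*, 0.19 to 0.28 for *PLAUR* and 0.10 to 0.18 for *SERPINB2*.

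Since the genes were read on the same arrays, their ratios could be subtracted from each other, which also removes any scaling of an array as a whole. The ratio of *PLAT* exceeded that of *PLAU* on 4 of 4 arrays, by 0.46 ± 0.14 on the log2 scale and by 0.28 at the least. The ratio of *PLAUR* exceeded that of *PLAU* on 4 of 4 arrays too, but by only 0.03 ± 0.02. With 4 arrays, the exact two-sided sign permutation test cannot go below p = 0.125, and both of these pairs, the 2 that were compared, reached that value (adjusted p = 0.125 over 2 pairs). Under the reported normalization, the ratios of the activators were thus 0.46 apart on average. The subtraction does not remove effects of background or normalization that depend on the signal. The means of *PLAT* and *PLAU* lay closer with normexp (0.38 and 0.16), no background correction (0.53 and 0.21) and median centering (0.66 and 0.28). The reported ratios of urokinase and its receptor differed by no more than 0.06 on any array at the brightest probe of each. At the *PLAUR* probe A_69_P002596, which read 0.39 on array 4, the gap to the *PLAU* probes (0.0036 to 0.0368 on that array) was wider.

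Among the serpins, *SERPINF1* fell. It encodes pigment epithelium-derived factor (PEDF), a secreted serpin that inhibits no protease and is known as an inhibitor of blood vessel growth. Its signals in HMB-treated and control cells were 7803 and 12430 on array 1, 5454 and 10410 on array 2, 9151 and 10760 on array 3, and 7101 and 9137 on array 4. The HMB signal was the lower on each array, and the groups met only at the edge, where the HMB signal of array 3 was just above the control signal of array 4. As log2 ratios these were −0.67, −0.93, −0.23 and −0.36, with a mean of −0.55 ± 0.31 (SD, n = 4), an FC of 1.46 downward with a 95% interval of −0.85 to −0.25, and an adjusted p of 0.0122 in limma. The mean was negative under all 19 alternative settings, from −0.96 to −0.42. The call was lost with the methods' t-test, with no filter on dim probes (adjusted p = 0.0789) and with treat (adjusted p = 0.526).

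The serpin *SERPINE2*, or protease nexin 1, inhibits thrombin, urokinase and plasmin at the cell surface. Its probe at chr6:12794784-12794843 (minus strand) gave signals of 50710 and 32870 on array 1, 42030 and 27210 on array 2, 49530 and 43370 on array 3, and 37770 and 39450 on array 4 (HMB-treated, then control). On the log2 scale the ratios were 0.63, 0.63, 0.19 and −0.06. Arrays 1 and 2 thus gave a ratio as large as that of *PLAT*, while array 4 gave none, and the mean was 0.35 ± 0.34 (SD, n = 4) with an adjusted p of 0.0701. Without array 4 the gene was called higher, at 0.48 with an adjusted p of 0.0247. The value also hung on the normalization: with median centering in place of lowess the mean was 0.74 (adjusted p = 0.00225), and scaled to the spike-in RNA it was −0.069.

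For *SERPINB2*, or plasminogen activator inhibitor 2 (PAI-2), an inhibitor of urokinase that is found mostly inside cells, 1 array stood apart. The main probe (chr8:73543447-73543506, plus strand), which the files describe as derived from the 3′ untranslated region, gave signals of 921 and 568 on array 1, 623 and 627 on array 2, 1003 and 917 on array 3, and 777 and 826 on array 4 (HMB-treated, then control). Its log2 ratios were 0.70, −0.01, 0.13 and −0.09, so the HMB-treated cells were higher on array 1 and close to the control on the others. The mean was 0.18 ± 0.35 (SD, n = 4) with an adjusted p of 0.304. The second probe, printed above, lies in the same 685-base stretch without overlapping the first, and read 0.78, −0.25, 0.06 and −0.19, with a mean of 0.10 ± 0.47 and an adjusted p of 0.651. Hence the high ratio of array 1 was seen by both probes. Without array 1 the mean of the first probe was 0.01 and that of the second was −0.12, and scaled to the spike-in RNA they were −0.23 and −0.31.

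**Figure D3:**
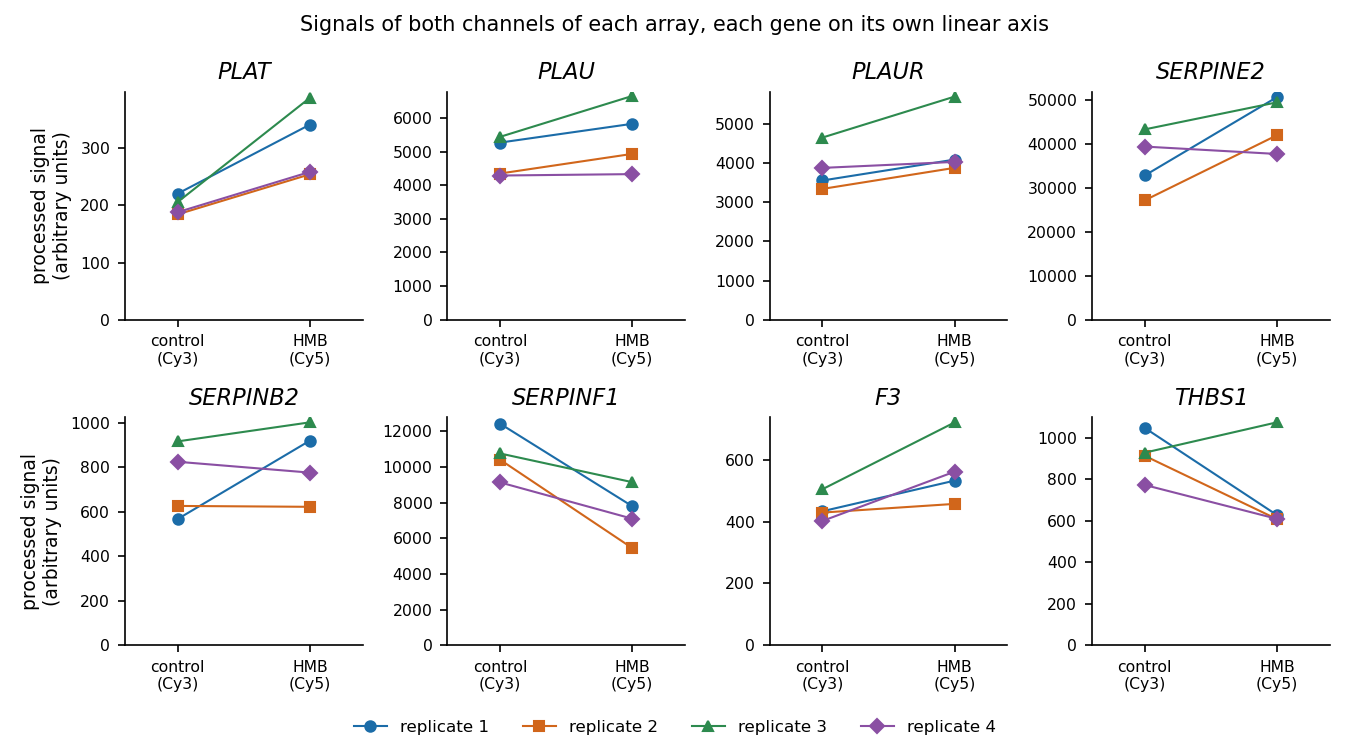
Normalized signals (arbitrary units) of the control (Cy3) and HMB-treated (Cy5) channels for the brightest probe of each tested gene, each gene on its own linear axis from 0, with a line joining the channels of 1 array. Lines rise on all 4 arrays for *PLAT*, *PLAU*, *PLAUR* and *F3*, fall on all 4 for *SERPINF1*, and cross for *SERPINE2*, *SERPINB2* and *THBS1*.

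Of the clotting members, *F3* was the nearer to a call. Tissue factor is the membrane receptor of factor VII that sets off thrombin formation. Its signals in HMB-treated and control cells were 533 and 434 on array 1, 458 and 430 on array 2, 721 and 505 on array 3, and 562 and 402 on array 4. The HMB signal was higher on each array, though that of array 2 lay within the control range. In log2 ratios this was 0.30, 0.09, 0.51 and 0.48, with a mean of 0.35 ± 0.19 (SD, n = 4), a 95% interval of 0.13 to 0.56 and an adjusted p of 0.0197, which passes the p threshold at an FC of 1.27, under 1.3. Without array 2 the mean was 0.43 and the gene was called higher (adjusted p = 0.0148). Scaled to the spike-in RNA it was −0.068. The probe lies at chr5:43654748-43654807 of EquCab1 on the plus strand.

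Thrombomodulin was not measurable. The receptor encoded by *THBD* binds thrombin on endothelial and other cells and turns it from clotting to the activation of protein C. Its single probe, at chr22:2372182-2372241 on the plus strand, was not well above background in either channel on any of the 4 arrays, with signals between 5.21 and 18.8. Feature Extraction had put a surrogate in place of the signal in the Cy5 channel on 4 arrays and in the Cy3 channel on 2, so its ratio carries no information and no FC is given.

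The last member, *THBS1*, encodes thrombospondin 1, a matrix-associated protein that releases TGF-beta from its latent form and binds CD47. Its probe lies at chr1:146126116-146126175 on the minus strand. The signals in HMB-treated and control cells were 627 and 1046 on array 1, 607 and 912 on array 2, 1073 and 927 on array 3, and 609 and 772 on array 4. The HMB signal was lower on 3 arrays and higher on array 3. The log2 ratios were −0.74, −0.59, 0.21 and −0.34, with a mean of −0.36 ± 0.42 (SD, n = 4), a 95% interval of −0.74 to 0.01 and an adjusted p of 0.0965. Without array 3 it was called lower, at −0.56 (adjusted p = 0.0139), and with array quality weights, which gave array 3 the lowest weight (0.63), it was called at −0.46 (adjusted p = 0.0347). It was also called lower when scaled to the spike-in RNA (−0.78). Under all 19 alternatives the mean stayed negative, from −0.78 to −0.24.

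For these 4 genes the side of the threshold or most of the value hung on a single array: array 1 for *SERPINB2*, array 2 for *F3*, array 3 for *THBS1* and array 4 for *SERPINE2*. No spot of the member probes was marked as uneven or as an outlier, and none was saturated. The calls of *PLAT* and *SERPINF1* held without each array in turn, at 0.52 to 0.67 and at −0.66 to −0.42, respectively.

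**Figure D4:**
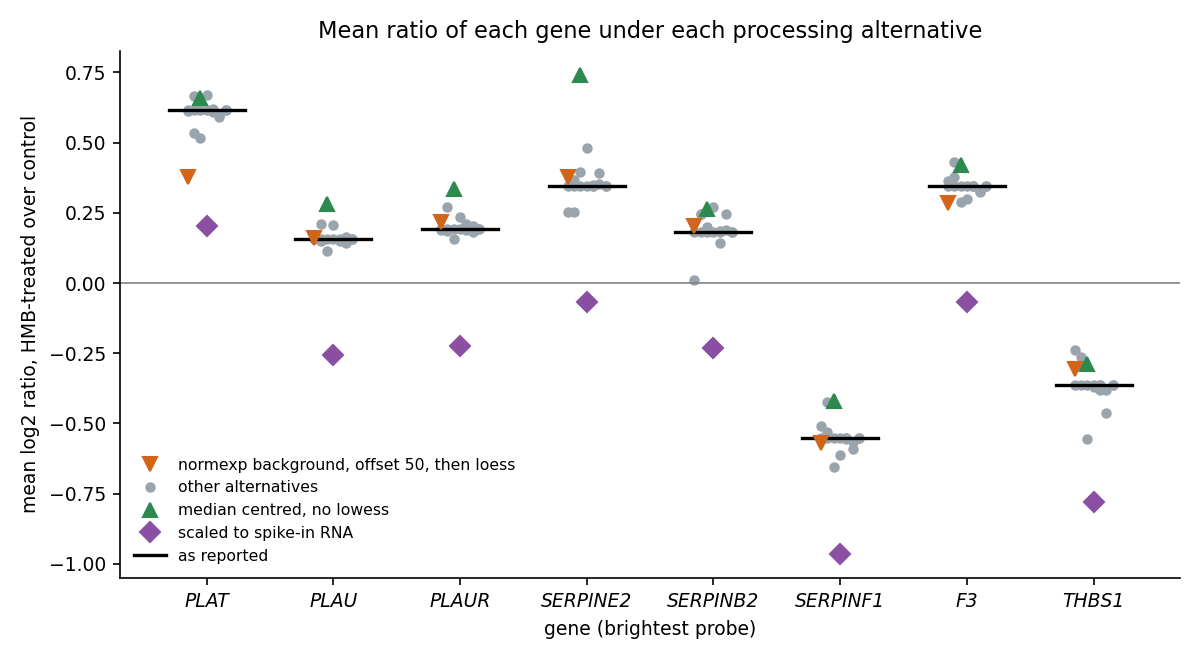
Mean log2 ratio of HMB-treated over control cells for the brightest probe of each tested gene as reported (bar) and under 19 alternative settings of background, normalization, filter, test and arrays (points). Scaling to the spike-in RNA moved every gene down and turned *PLAU*, *PLAUR*, *SERPINE2*, *SERPINB2* and *F3* negative, while *PLAT* stayed above 0 and *SERPINF1* and *THBS1* below it.

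The other genes of the plasmin system, which include the substrate, its receptors on the cell surface and further inhibitors, were described by a list of 21 genes. Of these, 10 were tested, 1 was called higher and 2 lower, with a median log2 ratio of 0.10. These counts, and those of the lists and markers below, stand beside 12.3% of all tested gene names called higher and 16.3% called lower. The risen gene was *SERPING1*, the C1 inhibitor, which also inhibits kallikrein and factor XII, at 2.05 ± 0.48 (SD, n = 4, adjusted p = 3.01e-04). The fallen genes were *ITGAV*, the alpha chain of the vitronectin receptor, at −0.68 ± 0.30, with 4 of its 6 probes called lower, and *IGF2R*, the mannose 6-phosphate receptor that also binds plasminogen and uPAR, at −0.61 ± 0.21. The *IGF2R* probe was well above background in the HMB channel on 3 of 4 arrays, and it read −0.19 with normexp and −0.24 with no background correction, without a call. The call of *ITGAV* was lost with normexp (−0.37) and with the methods' t-test, and neither gene was called with treat.

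Plasminogen itself was at the limit of the array. Of 12 readings of *PLG* (3 probes on 4 arrays), 1 was well above background in the HMB channel and 0 in the control channel, and of the single *SERPINF2* probe, for the plasmin inhibitor alpha-2-antiplasmin, 0 of 4 were in either channel. Prothrombin (*F2*) was well above background in 0 of 20 readings with HMB and 1 of 20 in the control. None of the 3 was tested. The activators and their inhibitors were read in cells in which the substrate and its plasma inhibitor were not detected on most spots.

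The list of clotting and thrombin genes had 27 members, of which 9 were tested, 2 were called higher and 2 lower, with a median log2 ratio of 0.00. These counts stand beside the 12.3% and 16.3% of all tested gene names called higher and lower. *PROC*, the anticoagulant protease protein C, fell by 1.26 ± 0.26 on the log2 scale, but was well above background in the HMB channel on 1 of 4 arrays, and with normexp it read −0.23 and was not called. Its cofactor *PROS1*, protein S, fell by 0.94 ± 0.24 (adjusted p = 7.67e-04). The receptor *PROCR* rose by 0.44 ± 0.13 with both probes called, and *F2RL2*, the thrombin receptor PAR3, rose by 0.50 ± 0.29 with 1 of 2 probes called, while *F2R*, the main thrombin receptor, named here after its value was seen, was at 0.0027 ± 0.22 and was not called. Scaled to the spike-in RNA, *PROCR* read 0.03 and *F2RL2* 0.085. Without array 3 *F2RL2* read 0.43 and was not called (adjusted p = 0.0621), and its call was also lost with normexp (0.31), no filter on dim probes, the methods' t-test and treat. The call of *PROCR* was lost with treat as well, and that of *PROC* with no background correction (−0.34).

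Of 15 other serpins, 14 were on the array and 6 were tested, with a median log2 ratio of 0.19, 2 called higher and 1 lower. The risen genes were *SERPINB6*, an inhibitor of intracellular proteases, at 0.80 ± 0.25, and *SERPINB9*, the granzyme B inhibitor, at 0.63 ± 0.13. *SERPINB1*, an inhibitor of neutrophil elastase, fell by 0.50 ± 0.24, with both of its probes called. Scaled to the spike-in RNA, *SERPINB9* read 0.21 and was not called, nor was it with treat (adjusted p = 0.0528). The call of *SERPINB1* was lost with no filter on dim probes (adjusted p = 0.0585), with the methods' t-test and with treat (adjusted p = 0.679).

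Of 11 thrombospondin genes and receptors, 9 were on the array and 5 were tested, with a median log2 ratio of −0.44, 1 called higher and 3 lower. The thrombospondin 1 receptor *CD47* rose by 0.93 ± 0.06 (adjusted p = 1.03e-04), with very little spread between arrays and both probes called. *COMP*, or thrombospondin 5, was at −0.63 ± 0.08, *THSD1*, a membrane protein with a thrombospondin repeat, at −0.72 ± 0.19, and *THBS3* at −0.44 ± 0.36 with 5 of 5 probes called, and all 3 were called lower. The call of *THBS3* was lost without array 1 (−0.33), array 2 (−0.33) or array 4 (−0.52, adjusted p = 0.0504), with median centering (−0.29, adjusted p = 0.112), no filter on dim probes (adjusted p = 0.160), the methods' t-test and treat. That of *COMP* was lost with normexp (−0.21) and with no background correction (−0.31). The receptor and its ligand *THBS1* thus had ratios of opposite sign on 3 of 4 arrays.

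**Figure D5:**
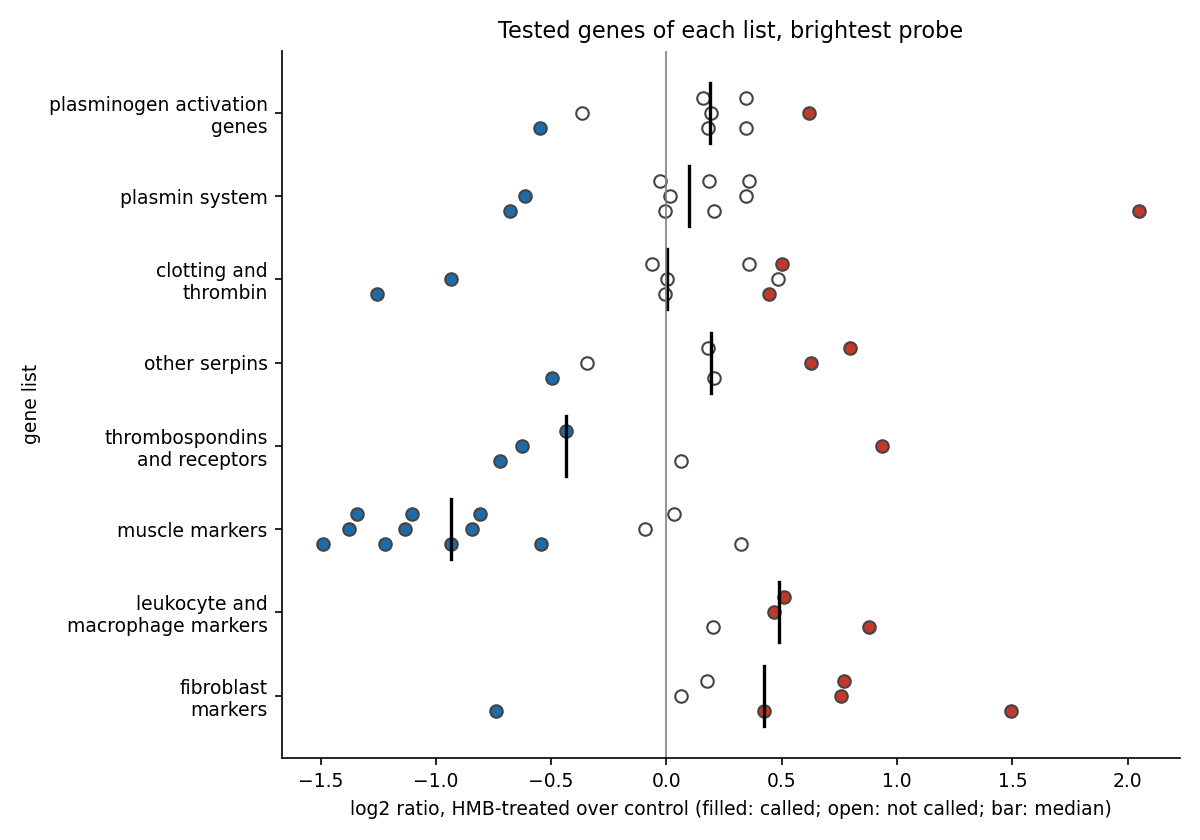
Log2 ratio of HMB-treated over control cells of every tested gene in each list (1 point per gene, filled where called, with the list's median as a bar). The plasminogen activation genes run from −0.55 to 0.62, the muscle markers have a median of −0.93, and the fibroblast markers have a median of 0.42.

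Markers of cell types differed between the groups on the same arrays. Of 14 muscle markers, 13 were tested, 10 were called lower and 0 higher, with a median log2 ratio of −0.93 and a summed signal of 73410 to 115900 with HMB and 183600 to 208000 in the control. *MYOD1*, *MYOG* and *DES* were well above background in both channels on these arrays, whereas *PAX7* was not well above background. *DES* fell, at −1.22, while *MYOD1* (0.32) and *MYOG* (0.03) were not called. The largest fall in the list was that of *MYF5*, at −1.49. Of 10 fibroblast markers, 7 were tested, 4 were called higher and 1 lower, with a median of 0.42 and summed signals of 253000 to 388900 with HMB and 223900 to 262100 in the control, and *PDGFRA* was the highest at 1.49. Of 12 leukocyte and macrophage markers, 4 were tested and 3 were called higher, with a median of 0.49 and summed signals of 20180 to 31910 and 16430 to 20900, respectively. The highest of them was *CD68*, at 0.88. Of the 12 markers, 7 were well above background in neither channel on any array. The leukocyte marker *PTPRC* was detected by 6 of 15 probes and *CD14* by its probe, whereas *CSF1R* was well above background in 1 of 4 control readings only. Of 11 endothelial markers, 10 were on the array and 1 was tested, and *PECAM1*, *CDH5* and *KDR* were well above background on none of the arrays. Of 8 smooth muscle and pericyte markers, 2 were tested and none was called, with a median of −0.04. The part of cell type in the ratios of *PLAT*, *SERPINF1* and the other members was not tested.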

How the data were processed

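Both RNAs of each array were compared within that array, and the 4 arrays were the replicates. The deposited scanner files hold intensity values per spot (mean, background and processed signal of each channel). The authors subtracted the background and applied linear and lowess normalization in Feature Extraction (version 10.10.1.1 per the file headers), which wrote log10 ratios of Cy5 over Cy3. The log2 ratios were computed here from these deposited log10 ratios by multiplying by 3.3219. Where a signal was too low, the deposited ratio rests on a surrogate value, which compresses ratios of dim probes. The log10 ratios in the authors' separate table matched those of the scanner files within 3.96e-05.

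Control spots and spots marked as uneven or as population outliers (13 to 35 per array) were left out, and a tested probe needed at least 3 ratios. Ratios were tested in R 4.3.3 with limma 3.58.1 (intercept, empirical Bayes) and Benjamini-Hochberg adjustment over all 24673 tested probes. The number of arrays limits the precision. The tests were checked on simulated data. All 9 genes are reported with every probe. From each list up to 5 called genes with the largest rise and 5 with the largest fall, same sign on all 4 arrays, were named, besides *PLG*, *SERPINF2* and *F2*. Markers were named where they define a list or had its largest called ratio. The genes, lists and alternatives were chosen with earlier results of these data known. Names followed the files, and all 9 symbols were found in RefSeq. Alternatives were normexp (offset 50), no background correction, median centering, spike-in scaling, scaling between arrays, a GC correction, the authors' table, other filters, other tests, the mean over probes and leaving out each array. The miRNA arrays and other assays of the study were not used here. The lists omit a gene that is not reported here.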

Additional observations from a re-analysis of the deposited data

How the results depend on the processing

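The count of genes called higher was 1 (*PLAT*). It was 0 with normexp, with spike-in scaling and with limma's treat, and 3 with median centering (*PLAT*, *F3* and *SERPINE2*). The count called lower was 1 (*SERPINF1*). It was 0 with no filter on dim probes, with the methods' t-test and with treat, and 2 with spike-in scaling and with array quality weights (*SERPINF1* and *THBS1*). Leaving out 1 array gave 1 to 2 genes called higher and 1 to 2 called lower. The sign turned with spike-in scaling for *PLAU* (−0.26), *PLAUR* (−0.22), *SERPINE2* (−0.0686), *F3* (−0.0682) and both probes of *SERPINB2* (−0.23 and −0.31), and without replicate 1 for the second probe of *SERPINB2* (−0.12, and up to 0.22 without replicate 2). The spike-in scaling took the designed ratios as symmetric around 1, and its part in the direction was not tested further. Of the members' values under the alternatives, 150 kept direction and side of the threshold, 7 turned, 6 lost and 7 gained a call. Of those of the named genes of the other lists, 234 kept both and 30 lost a call. Over the whole array, 7048 probes were called, against 3538 with normexp, 4439 with no background correction, 16755 with spike-in scaling and 2822 with treat. The share of calls that were higher was 42.5%, against 55.0% with normexp, 60.1% with no background correction, 52.4% with median centering, 8.28% with spike-in scaling and 54.6% with treat. Each ratio pairs both RNAs of an array, and with 1 group of ratios there was no further replicate block to fit. The *THBD* probe, not well above background, limits what can be said of that gene.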
